A study of Mus musculus with 4 samples.

Results

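The 47 protein-coding genes described here encode the Wnt ligands, their frizzled receptors and the secreted or membrane proteins that tune them. They were taken by symbol from the 21951 protein-coding genes of GENCODE M21: every Wnt, Fzd, Sfrp and Dkk gene with a number, plus Wif1, Lrp5, Lrp6, Axin2, Rspo1 to Rspo4, Lgr4 and Lgr5. The set held 19 ligands, 10 frizzled receptors, 2 co-receptors, 6 R-spondins and LGR receptors, 9 inhibitors and Axin2. Chromatin accessibility was measured by ATAC-seq, in which a transposase cuts open chromatin and tags it for sequencing. The material was brain tumors that mG7080 cells, a murine glioblastoma line, had formed in Esm1 KO mice and in WT mice of the C57BL/6 strain. There were 2 tumors from Esm1 KO mice and 2 tumors from WT mice, and both groups received the same line by intracranial injection. Esm1 encodes Endocan, a proteoglycan made by endothelial cells. The knockout is in the host, the tumor cells come from 1 line, and Esm1 itself had 0 peaks within 3 kb of its start sites in each library, so it gave no check of the labels. The methods of the study and its reporting form give differing ages for the mice, and the knockout line came from earlier work. The sources also differ on the material, since they name tumors, cells isolated from tumors and sphere cultures grown from them. The direction of each difference rests on the sample titles.

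Wnt proteins are secreted lipid-modified ligands that bind frizzled receptors. With the co-receptors Lrp5 and Lrp6 they stabilise beta-catenin, which then acts with TCF/LEF factors in the nucleus, and with other partners they drive planar polarity or calcium responses. R-spondins bind LGR receptors and keep frizzled proteins at the membrane, Dkk proteins block the co-receptors, and Sfrp proteins and Wif1 bind the ligands. In the brain this pathway patterns the neural tube, and Wnt7a and Wnt7b act on the vessels of the blood-brain barrier.

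Each library was represented by a list of peaks, with 82975 and 85418 peaks in the KO libraries and 63000 and 100088 in the WT libraries. Heights and backgrounds are pileups, the number of reads or fragments that the peak caller counted over a position. The genome background, a measure of depth, was 6.03 and 6.71 in KO and 4.41 and 6.85 in WT, so WT tumor 1 was the shallowest library. The lowest height that had been called was 13 to 16, and a lower signal has no value here. Markers of glioma and neural progenitor cells had a promoter peak at 8 and 9 of 10 genes in KO and 8 and 8 of 10 in WT. Endothelial markers had one at 1 and 3 of 10 in KO and 1 and 3 of 10 in WT, with none at Pecam1, Cdh5, Tek, Tie1, Vwf or Emcn in any library. Microglia and macrophage markers had one at 2 and 2 of 10 in KO and 0 and 2 of 10 in WT, and T cell markers at 0 of 4 in each library. Neuron markers had one at 4 and 5 of 6 in KO and 5 and 5 of 6 in WT. Mural and fibroblast markers had one at 5 and 4 of 10 in KO and 4 and 6 of 10 in WT. For astrocyte markers it was 3 and 4 of 6 in KO and 3 and 3 of 6 in WT. In bulk material fewer cells with an open site and less opening per cell cannot be told apart.

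Sequences of promoters that contrasted in accessibility are shown first, because the genes differed most plainly in whether a promoter peak was present. They are the 250 bases before the RefSeq start on GRCm38.p6, given 5′ to 3′ on the gene's strand, with each CpG in capitals. RefSeq promoter sequences were matched for 30 of the 47 genes. Axin2 (chr11:108920099-108920348, plus strand) and Wnt9a (chr11:59306680-59306929, plus strand) had a promoter peak in all 4 libraries, Wnt6 (chr1:74771642-74771891, plus strand) had one in the WT libraries alone, and Wnt3a (chr11:59290752-59291001, minus strand) and Dkk1 (chr19:30549497-30549746, minus strand) had none in any library. At Wnt9a the peak of WT tumor 2 began after the printed stretch, and at Wnt6 the peak of WT tumor 1 did. The Wnt3a stretch held 41 CpG in 250 bases and the Dkk1 stretch 6, against 24 at Axin2, 48 at Wnt9a and 28 at Wnt6.
Axin2: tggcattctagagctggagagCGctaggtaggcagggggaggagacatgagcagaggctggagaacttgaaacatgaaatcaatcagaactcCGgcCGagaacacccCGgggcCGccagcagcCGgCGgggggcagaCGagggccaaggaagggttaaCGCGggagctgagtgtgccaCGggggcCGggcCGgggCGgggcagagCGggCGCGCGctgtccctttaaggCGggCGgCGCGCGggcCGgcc
Wnt9a: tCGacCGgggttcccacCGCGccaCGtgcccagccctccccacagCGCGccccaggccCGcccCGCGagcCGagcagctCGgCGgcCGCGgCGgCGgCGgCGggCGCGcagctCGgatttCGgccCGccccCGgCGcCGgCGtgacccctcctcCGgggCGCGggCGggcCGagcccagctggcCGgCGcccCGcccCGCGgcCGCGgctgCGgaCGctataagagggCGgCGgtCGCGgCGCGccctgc
Wnt6: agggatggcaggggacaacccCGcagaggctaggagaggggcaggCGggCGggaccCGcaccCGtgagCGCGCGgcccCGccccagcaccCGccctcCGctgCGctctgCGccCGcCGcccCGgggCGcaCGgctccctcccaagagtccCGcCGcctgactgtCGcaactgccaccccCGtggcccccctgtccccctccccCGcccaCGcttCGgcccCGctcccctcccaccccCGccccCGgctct
Wnt3a: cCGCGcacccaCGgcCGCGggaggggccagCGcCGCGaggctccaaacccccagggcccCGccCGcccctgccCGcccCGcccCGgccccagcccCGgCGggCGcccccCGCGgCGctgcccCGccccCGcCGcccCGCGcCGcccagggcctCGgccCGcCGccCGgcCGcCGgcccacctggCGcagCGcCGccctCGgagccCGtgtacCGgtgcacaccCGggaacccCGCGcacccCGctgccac
Dkk1: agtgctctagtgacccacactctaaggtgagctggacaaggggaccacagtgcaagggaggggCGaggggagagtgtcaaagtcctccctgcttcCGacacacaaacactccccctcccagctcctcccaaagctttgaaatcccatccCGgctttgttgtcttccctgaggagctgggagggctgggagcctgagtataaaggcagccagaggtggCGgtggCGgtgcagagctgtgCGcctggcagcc

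A promoter was taken as 1000 bp on either side of any annotated start, and it was called open in a library when a peak overlapped it. Of the 47 genes, 33 (70.2%) were open in all 4 libraries, 6 in 1 to 3 libraries and 8 in none. Over all 21951 genes the shares were 60.6% open in all 4 libraries and 32.8% in none. By library, 34 and 37 of the 47 promoters were open in KO and 38 and 37 in WT. The counts thus overlapped between the groups. None of the open promoters shared its peak with the promoter window of another protein-coding gene.

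The 8 promoters without a peak in any library were those of the ligands Wnt1, Wnt3a, Wnt8a and Wnt8b, the R-spondins Rspo1 and Rspo4 and the inhibitors Dkk1 and Dkk4. Wnt1 is a midbrain ligand and Wnt3a a hippocampal one in development. The absence of a peak means only that signal stayed under the height that could be called. A region 1401 bases before the Rspo1 start, outside the promoter window, had 20 and 27 in KO and 30 in WT tumor 2. With windows of 2500 bp Rspo1 was therefore open in those libraries. Among these 8, the CpG ratio (observed over expected CpG, 250 bp before to 50 bp after the start, highest start per gene) fell on both sides of 0.6. It was 0.863 at Wnt3a, 0.825 at Rspo4, 0.818 at Rspo1 and 0.699 at Wnt1, against 0.345 at Wnt8b, 0.258 at Wnt8a, 0.24 at Dkk1 and 0.227 at Dkk4. Hence 4 of 8 had a ratio of at least 0.6, while 5.63% of all genes without a promoter peak did. Among the genes open in all 4 libraries the median ratio was 0.793 for the 33 Wnt pathway genes and 0.815 for all 13310 genes.

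**Figure D1:**
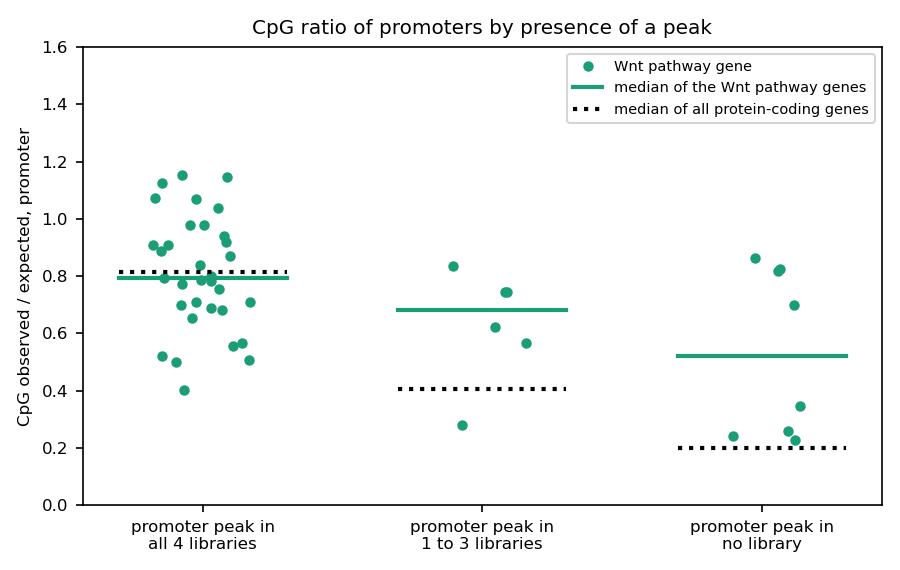
CpG ratio of the promoter (vertical axis, observed over expected) of the 47 Wnt pathway genes by the number of libraries with a promoter peak, with 1 point per gene, green bars for their medians and dotted bars for the medians of all protein-coding genes. The genes with no promoter peak split into 4 points between 0.699 and 0.863 and 4 between 0.227 and 0.345.

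Neighbouring ligand genes differed in this respect. Wnt3a and Wnt9a lie head to head on chromosome 11 with 16.2 kb between them. Wnt9a (chr11:59306928-59333552) had tallest promoter peaks with heights of 42 and 56 in the KO libraries against 39 and 49 in the WT libraries, at different positions. Counted from the start, with upstream negative, the summits lay at 73 and −115 bases in KO and at 1009 and 1058 bases in WT. KO tumor 1 also had a peak at 1108 bases, with a height of 41 beside 42 for its tallest. Near the start itself WT tumor 1 had a peak with a height of 32 and WT tumor 2 had none. Wnt3a (chr11:59248033-59290752) had no promoter peak in either group. Its promoter was the richer in G and C, with 87.6% of the 250 bases printed above against 84.4% at Wnt9a. Wnt1 and Wnt10b on chromosome 15 formed a second such pair, 11.7 kb apart. Wnt10b had heights of 28 and 34 in KO against 19 and 40 in WT, and Wnt1 had no peak in any library.

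Among the 6 promoters open in some libraries, Wnt6 was the only one whose presence followed the groups. Wnt6 (chr1:74771892-74785322), a ligand known from kidney tubule formation, had no promoter peak in either KO library and peaks with heights of 16 and 24 in the WT libraries. This was 1 of 47 genes open in both WT and neither KO library, against 0.132% of all genes, and 0 of 47 were open in both KO and neither WT library, against 0.296% of all genes. Both WT heights were near the lowest that could be called. The WT summits lay 284 bases after and 153 bases before the start, so they did not mark the same position. A further peak with heights of 35 and 41 in KO and 27 and 36 in WT began between 1065 and 1219 bases after the start, just outside the promoter window. With windows of 2500 bp Wnt6 was therefore open in all 4 libraries, and with all lists trimmed to the same length it was not a WT-only gene. With only peaks of −log10 q 5 or higher, Wnt6 was no longer WT-only and Wnt9b was.

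The other partial promoters crossed the groups. Wnt10a (chr1:74791516-74804179), a ligand of skin and tooth development, had heights of 27 and 35 in KO and 30 in WT tumor 2, and was missing in WT tumor 1, the shallowest library. Lrp5 (chr19:3584828-3686564), a Wnt co-receptor, had 28 in KO tumor 2 against 16 and 21 in the WT libraries, and was missing in KO tumor 1. Sfrp5 (chr19:42197971-42202252), a secreted inhibitor, had the same pattern, with 18 in KO tumor 2 against 20 and 22 in WT. These 2 genes lay just outside a WT-only call and entered it when KO tumor 2 was left out, whereas Wnt10a became KO-only without WT tumor 2.

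Fzd10 (chr5:128600844-128604093), a receptor, had a height of 20 in KO tumor 2 and 20 in WT tumor 1 and no peak in the others, and those 2 peaks did not overlap. Wnt3 (chr11:103774150-103817957), a ligand of limb outgrowth, had a peak in WT tumor 1 alone, with a height of 25. It also became WT-only when WT tumor 2 was left out. That library also had a promoter peak at 5 of 6 mature oligodendrocyte markers, against 2 in each of the other 3 libraries, and the part of this in the Wnt3 peak was not tested.

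**Figure D2:**
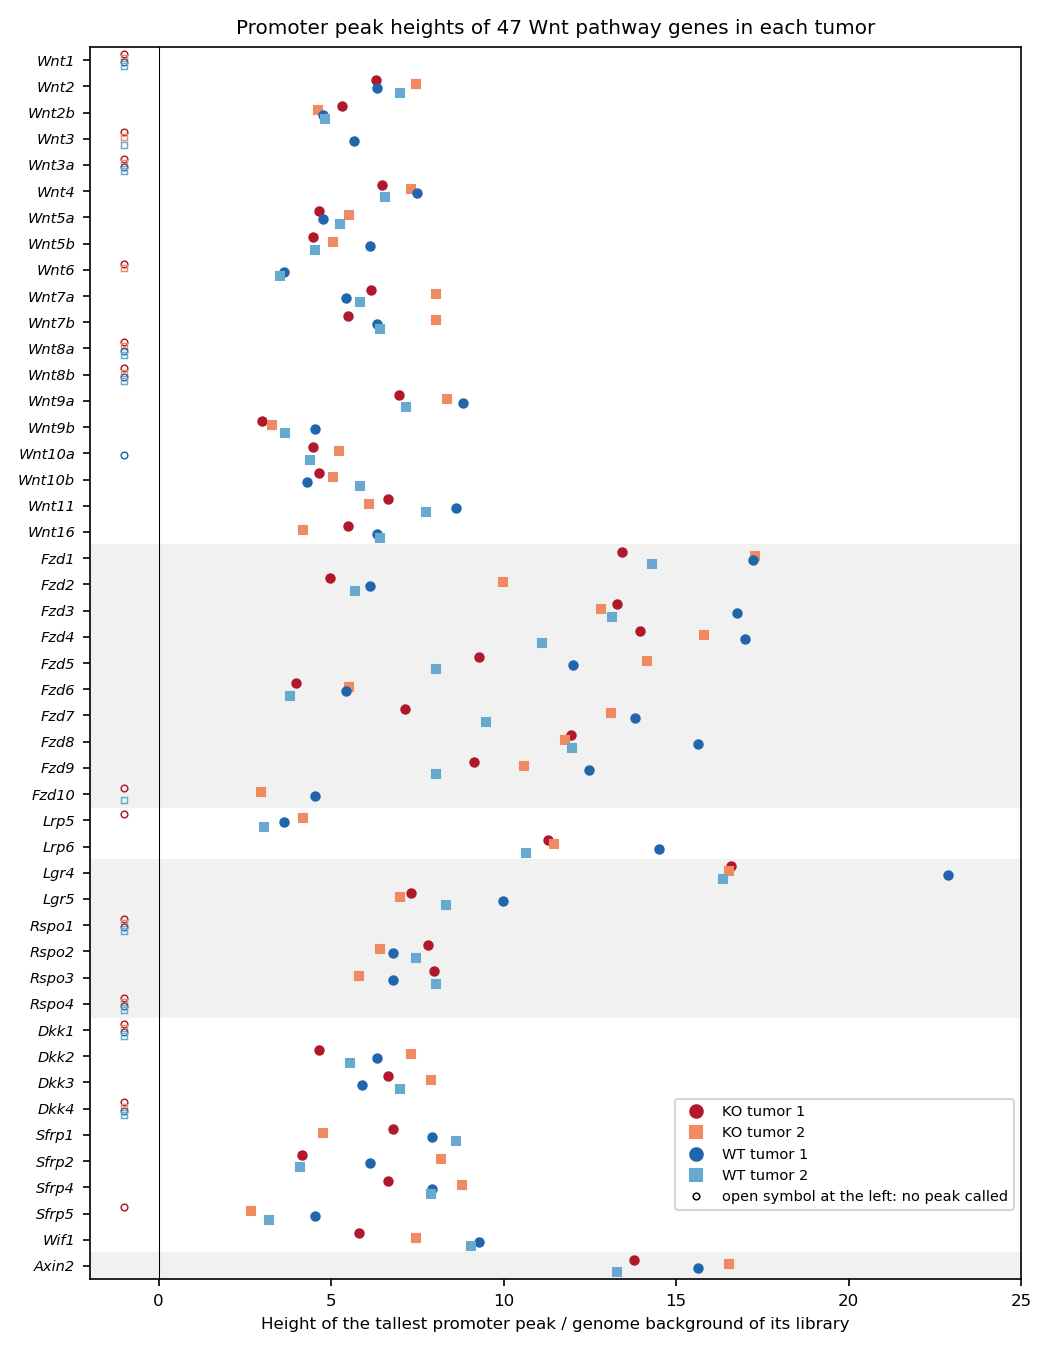
Height of the tallest promoter peak relative to the genome background of that library (horizontal axis, no unit) for each of the 47 genes, grouped from ligands to Axin2, with red and orange symbols for the KO tumors, blue symbols for the WT tumors and open symbols at the left where no peak was called. Lgr4, Fzd1, Fzd3, Fzd4 and Axin2 sit furthest to the right, the ligands lie between 3 and 9, and Wnt6 is the only row with open symbols for both KO tumors and filled symbols for both WT tumors.

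The height of a promoter peak is the pileup at 1 position, so it does not grow with the length of the gene. Among all open promoters of a library the median of the open Wnt pathway promoters stood at percentile 14.5 and 17.4 of height in KO and 9.58 and 16.4 in WT. Low heights were thus the rule in both groups. The 12 ligand promoters open in all 4 libraries had median percentiles of 10.1 and 10.8 in KO and 8.47 and 13.0 in WT. The 9 frizzled promoters had median percentiles of 28.2 and 52.4 in KO and 45.2 and 29.1 in WT, higher than the ligands in each library. No ligand promoter exceeded a height of 56 in any library, where the median promoter open in all 4 libraries had 75 and 87 in KO and 65 and 87 in WT.

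Lgr4, an R-spondin receptor, had the tallest promoter peaks of the set in 3 of the 4 libraries. Its heights were 100 and 111 in KO against 101 and 112 in WT, at percentiles 81.4 and 77.9 in KO and 89.2 and 79.1 in WT. Fzd1 had 81 and 116 in KO against 76 and 98 in WT, and its peak was the tallest of the set in KO tumor 2. Fzd3, a receptor for axon guidance, had 80 and 86 in KO against 74 and 90 in WT. All 3 genes overlapped between the groups.

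KO and WT heights were compared with limma on log2 height, centred on each library's median, over the 13310 promoters with a peak in all 4 libraries. Of the 33 Wnt pathway promoters 0 passed an adjusted p of 0.05, and 0 had an unadjusted p under 0.05. Over all 13310 promoters 0.015% passed, which were Myc and Dynlt1b, 1.35 and 0.88 higher in KO (log2), and 3.94% had an unadjusted p under 0.05. The paper reports the Myc promoter as more accessible in cells from WT tumors, the opposite direction, with more Myc RNA and protein there. The reason was not tested, and each KO minus WT sign here rests on the same sample titles. The lowest unadjusted p among the 33 was 0.103, and the adjusted p of each was 0.998 or more (limma). The median difference, KO minus WT, was 0.064 on the log2 scale for the 33 genes and −0.005 for all promoters. The sign followed the scaling: 20 of 33 were higher in KO after centring on the median. With heights scaled to the genome background, 12 of 33 were higher in KO. The median difference was then −0.042 for the 33 genes and −0.11 for all promoters (log2). With the authors' fold as the measure 13 of 33 were higher in KO. The 95% intervals reached 0.22 to 0.67 to either side of the difference and are not adjusted for the number of promoters. For 4 of the 33 genes, Fzd8, Rspo3, Wnt2 and Wnt9a, the tallest peaks of at least 2 libraries did not overlap, so their heights set different positions side by side.

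The spread between the 2 tumors of a group was set beside the difference between the group means. Without any group difference, a gap between 2 single tumors exceeds a gap between 2 means on average. A larger spread alone is therefore not informative. For 28 of the 33 genes the spread between the 2 tumors of at least 1 group was larger than the difference between the groups. The median spread was 0.21 between the KO tumors and 0.23 between the WT tumors (log2, after centring), against a median difference of 0.15 between KO and WT, each without sign. Over all promoters these were 0.14, 0.13 and 0.092. After centring, heights of the 2 groups did not overlap for 7 of 33 genes, against 31.3% of all promoters. These 7 were Wnt7a, Wnt4 and Axin2, higher in KO, and Wif1, Wnt9b, Wnt11 and Lgr5, lower in KO.

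**Figure D3:**
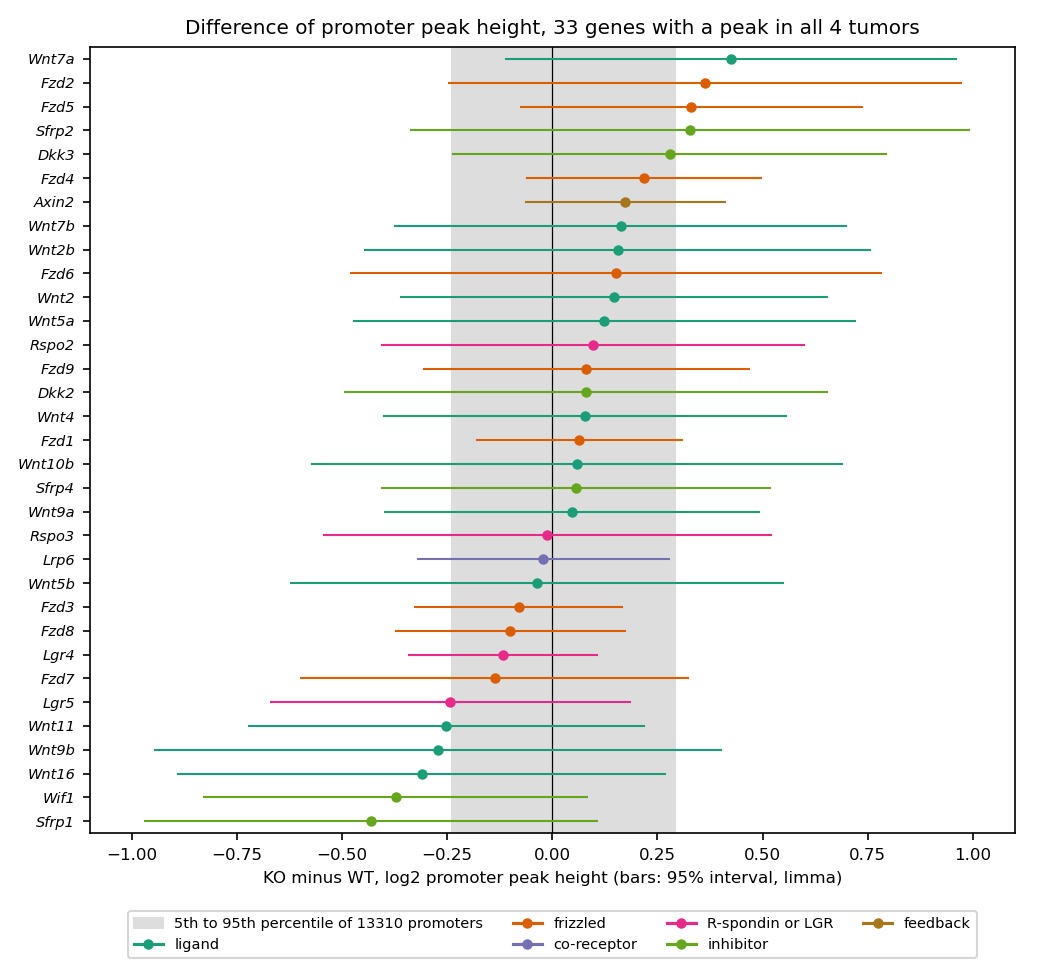
KO minus WT difference of promoter peak height (horizontal axis, log2) for the 33 genes open in all 4 libraries, sorted, with limma 95% intervals as bars and the role of the gene as color. Each interval includes 0, and 23 of the 33 points lie inside the grey band that holds the 5th to 95th percentile of all promoters.

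Among the ligands the largest difference was at Wnt7a (chr6:91363981-91411363), which acts on brain vessels and on neural progenitors. Its heights were 37 and 54 in KO against 24 and 40 in WT. After centring, both KO tumors, at 38.4 and 48.4, stood above both WT tumors, at 28.8 and 35.8. The difference was 0.43 (log2, SE 0.25, n = 2 per group, 95% interval −0.11 to 0.96, limma adjusted p = 0.998). The fold over local background that the authors' peak caller gave was 3.91 and 3.93 in KO against 4.45 and 4.18 in WT, the reverse order. Relative to the genome background, the local background beside the peak was 1.45 and 1.94 in KO and 1.05 and 1.29 in WT.

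Wnt16, a ligand of bone and joint, had the most negative difference among the ligands, with heights of 33 and 28 in KO against 28 and 44 in WT. The groups overlapped on the raw scale and after centring, and the difference was −0.31 (log2, SE 0.27, limma adjusted p = 0.998). Wnt9b, a kidney ligand whose promoter was the lowest of the 33 in 3 of the 4 libraries, had 18 and 22 in KO against 20 and 25 in WT. Its difference was −0.27 (SE 0.32), with no overlap after centring. Over the 12 ligands 8 were higher in KO and 4 lower, and 0 passed the test.

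The other ligands open in all 4 libraries had low promoter peaks with intervals on both sides of 0. Wnt5a, a noncanonical ligand of planar polarity, had 28 and 37 in KO against 21 and 36 in WT. Wnt5b had 27 and 34 in KO against 27 and 31 in WT. Both overlapped between the groups, with differences of 0.12 (log2, SE 0.28) and −0.04 (SE 0.28). Wnt4, a ligand of kidney and gonad development, had 39 and 49 in KO against 33 and 45 in WT. Its groups were apart only after centring, at 40.5 and 43.9 in KO against 39.6 and 40.3 in WT, and the difference was 0.08 (SE 0.23). Wnt2, a ligand of lung development, had 38 and 50 in KO against 28 and 48 in WT, and Wnt2b had 32 and 31 in KO against 21 and 33 in WT. For both, WT tumor 1 was lowest on the raw scale, and the differences were 0.15 (SE 0.24) and 0.16 (SE 0.28).

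Of the receptors, Fzd2 and Fzd5 had the largest KO minus WT differences. Fzd2 (chr11:102604396-102608058) had 30 and 67 in KO against 27 and 39 in WT. Fzd5 (chr1:64730558-64737751), a receptor needed for eye and yolk sac vessels in mice, had 56 and 95 in KO against 53 and 55 in WT. For both genes KO tumor 2 alone stood apart, and KO tumor 1 was close to the WT tumors. The differences were 0.36 (log2, SE 0.29) at Fzd2 and 0.33 (SE 0.19) at Fzd5, with a limma adjusted p of 0.998 at each. Without KO tumor 1, Fzd5 was 0.60 higher in KO with a limma adjusted p of 0.0496, and that fit called 163 promoters higher in KO and 66 lower against 2 and 0 with all libraries. The KO group is then 1 library, assumed to vary like the others. Without KO tumor 2 the difference was 0.057 at Fzd5 and −0.11 at Fzd2.

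Fzd7, a receptor of stem cells in the gut, had the second widest spread between KO tumors among the receptors, with 43 and 88 in KO against 61 and 65 in WT. The KO heights enclosed both WT heights. The co-receptor Lrp6 (chr6:134446476-134566965) had 68 and 77 in KO against 64 and 73 in WT. Its difference was −0.02 (log2, SE 0.14, 95% interval −0.32 to 0.28), among the smallest of the 33.

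Of the remaining receptors, Fzd4, which binds norrin in retinal and brain vessels, had 84 and 106 in KO against 75 and 76 in WT. On the raw scale both KO tumors were above both WT tumors, and after centring KO tumor 1, at 87.3, was below WT tumor 1, at 89.9. The difference was 0.22 (log2, SE 0.13, limma adjusted p = 0.998). Fzd8 had 72 and 79 in KO against 69 and 82 in WT, and Fzd6, a planar polarity receptor of hair follicles, had 24 and 37 in KO against 24 and 26 in WT. Their differences were −0.10 (SE 0.13) and 0.15 (SE 0.30). Over the 9 frizzled promoters tested, 6 were higher in KO and 3 lower. After centring, the heights of the 2 groups did not overlap for 0 of these 9, against 31.3% of all promoters.

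Among the R-spondins and their receptors, Rspo2 had 47 and 43 in KO against 30 and 51 in WT. Rspo3, an R-spondin made by endothelial cells in mouse embryos, had 48 and 39 in KO against 30 and 55 in WT. In both genes the WT heights enclosed the KO heights. Lgr5, a receptor that marks stem cells of the gut, had 44 and 47 in KO against 44 and 57 in WT. After centring it was 45.7 and 42.1 in KO against 52.8 and 51.1 in WT, with a difference of −0.24 (log2, SE 0.20, limma adjusted p = 0.998). Both regions flanking Rspo3 within 4 kb of its start were found in all 4 libraries, with 57 and 43 in KO against 26 and 56 in WT upstream and 60 and 47 in KO against 31 and 59 in WT in the gene.

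The inhibitors Sfrp1 and Wif1 held the low end of the list. Sfrp1 (chr8:23411502-23449632), a secreted frizzled-related protein, had 41 and 32 in KO against 35 and 59 in WT. WT tumor 2 was highest and KO tumor 2 lowest, and the groups overlapped. The difference was −0.43 (log2, SE 0.25, 95% interval −0.97 to 0.11, limma adjusted p = 0.998), the lowest of the set, and it was −0.14 without KO tumor 2 and −0.72 without KO tumor 1. Wif1 (chr10:121033960-121100650), which binds Wnt ligands outside the cell, had 35 and 50 in KO against 41 and 62 in WT. After centring both KO tumors, at 36.4 and 44.8, were below both WT tumors, at 49.2 and 55.5, with a difference of −0.37 (SE 0.22, limma adjusted p = 0.998).

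Sfrp2 (chr3:83766321-83774316) differed in the other direction, with 25 and 55 in KO against 27 and 28 in WT. Only KO tumor 2 was high. The difference was 0.33 (log2, SE 0.31, limma adjusted p = 0.998), and it was −0.13 without KO tumor 2. Over the 6 inhibitors open in all 4 libraries, 4 were higher in KO and 2 lower. Dkk3 had 40 and 53 in KO against 26 and 48 in WT, and Dkk2, which binds Lrp5 and Lrp6, had 28 and 49 in KO against 28 and 38 in WT. Sfrp4 had 40 and 59 in KO against 35 and 54 in WT. In these 3 genes tumor 2 of each group was the higher, as in most of the set on the raw scale, and the differences were 0.28 (SE 0.24), 0.08 (SE 0.27) and 0.06 (SE 0.22).

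Axin2 (chr11:108920349-108950783) is a scaffold of the beta-catenin destruction complex and a common target gene of the pathway. Its promoter peak had heights of 83 and 111 in KO against 69 and 91 in WT, between percentiles 56.5 and 77.9 of the open promoters. After centring the KO tumors, at 86.3 and 99.4, stood above the WT tumors, at 82.7 and 81.5. The difference was 0.17 (log2, SE 0.11, 95% interval −0.06 to 0.41, limma adjusted p = 0.998). The fold given by the authors' peak caller was 4.33 and 3.77 in KO against 4.50 and 4.25 in WT. KO tumor 2 had the highest local background of any Wnt pathway promoter there, 4.28 times the genome background, against 3.05 times in KO tumor 1 and 3.30 and 3.01 times in WT. The 250 bases printed above lie within the promoter peak of each library.

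The rest of the pathway was read from a list of 54 other genes, from Porcn and Wls, which make and release ligands, to planar polarity genes. Promoters were open in all 4 libraries at 46 of 54 (85.2%), against 60.6% of all genes, and Kremen2, a Dkk receptor, was the only one open in none. All 16 genes of the signal transduction list, such as Ctnnb1, Apc and Gsk3b, were open in all 4 libraries. The nuclear factors Lef1, Tcf7l2 and Tle2 were open in some. In limma 0 of 46 passed an adjusted p of 0.05, 5 (10.9%) had an unadjusted p under 0.05, against 3.94% of all promoters, and the median difference was 0.019 (log2).

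Distal peaks lay outside the promoter windows of all protein-coding genes and within 20 kb of a start of one of the 47 genes. There were 70 and 79 in the KO libraries and 56 and 79 in the WT libraries. The counts overlapped, with KO tumor 2 and WT tumor 2 equal. The mean difference of 7 peaks gave p = 1 in an exact permutation test over the 4 libraries (two-sided), in which 0.33 is the smallest p possible. Per 10000 peaks of the library the values were 8.44 and 9.25 in KO and 8.89 and 7.89 in WT. The difference was −1.5 peaks when only peaks of −log10 q 5 or higher were kept, and −3.5 when the lists were trimmed to the same length.

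Merging the 4 lists gave 103 distal regions near 40 of the 47 genes. Of these, 42 (40.8%) were found in all 4 libraries, against 32.9% of all 106735 distal regions. The 103 regions lay between genes at 57.3%, in introns at 28.2% and in exons at 14.6%, against 45.3%, 45.1% and 9.57% of all distal regions. The nearest start was that of a Wnt pathway gene for 96 of the 103. Regions within 20 kb of 2 of the genes numbered 12, and all 12 came from the gene pairs Wnt6 and Wnt10a, Wnt3a and Wnt9a, Wnt9b and Wnt3, and Wnt10b and Wnt1.

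Sequences around the summits of 3 regions are shown because they carry the single TCF/LEF match among the regions, the lowest p and, by its lowest library, the tallest region found in all 4 libraries. Each is 201 bases of GRCm38 on the strand of the gene, with the match in capitals. The first lies in an intron of Wnt10a (chr1:74797542-74797742) and holds ATCAAAG, the reverse complement of the TCF/LEF letters CTTTGAT. The second lies upstream of Wnt7b (chr15:85600464-85600664, minus strand) and holds an AP-1 match to TGANTCA. The third lies upstream of Wnt11 (chr7:98815338-98815538) and holds the E-box CATATG that OLIG factors bind.
Wnt10a intron: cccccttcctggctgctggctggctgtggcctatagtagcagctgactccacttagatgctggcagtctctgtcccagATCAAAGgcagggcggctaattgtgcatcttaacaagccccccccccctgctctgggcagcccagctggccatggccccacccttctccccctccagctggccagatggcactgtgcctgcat
Wnt7b upstream: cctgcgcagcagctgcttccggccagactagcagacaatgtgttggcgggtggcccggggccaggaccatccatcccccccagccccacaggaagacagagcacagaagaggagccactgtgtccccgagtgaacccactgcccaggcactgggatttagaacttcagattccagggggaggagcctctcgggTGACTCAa
Wnt11 upstream: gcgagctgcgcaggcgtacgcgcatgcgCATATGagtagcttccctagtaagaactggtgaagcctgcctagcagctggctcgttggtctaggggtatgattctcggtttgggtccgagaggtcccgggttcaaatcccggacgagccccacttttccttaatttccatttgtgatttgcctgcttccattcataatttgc

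The region upstream of Wnt7b had the lowest p of the 42 tested. Wnt7b, like Wnt7a, signals to brain endothelium. Its region at chr15:85598907-85600996, with the summit 18091 bases before the nearest start, had heights of 33 and 93 in KO against 18 and 36 in WT. KO tumor 2 alone was high, and KO tumor 1 lay between the WT tumors. The difference was 1.01 (log2, SE 0.26, limma adjusted p = 0.176), and 0 of the 42 regions passed, against 0.0395% of all 48089 regions tested. In this fit the variance was shared along the trend, so the spread between the 2 KO tumors at this region did not enter its SE. Without KO tumor 1, which leaves a lone KO library, the difference was 1.68, and without KO tumor 2 it was 0.27. The lowest limma adjusted p of the 42 regions was 0.127 without a variance trend and 0.28 with mean heights of at least 20. It was 0.786 with scaling to the genome background, 0.96 with the authors' fold and 0.99988 with 500 bp windows on summits. The Wnt7b promoter had 33 and 54 in KO against 28 and 44 in WT, with a difference of 0.16 (SE 0.25).

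An unadjusted p under 0.05 was reached at 3 of 42 regions (7.14%), against 3.54% of all distal regions tested. The other 2 were named after their values were seen. A region 13825 bases before Dkk3, which encodes a divergent Dkk family protein, had 63 and 77 in KO against 27 and 75 in WT and differed by 0.51 (log2, SE 0.23). A region 2006 bases before Sfrp2 had 28 and 33 in KO against 43 and 40 in WT and differed by −0.56 (SE 0.27), opposite in sign to the Sfrp2 promoter. Over the 42 regions 26 were higher in KO and 16 lower, 24 were higher in KO with scaling to the genome background, and 17 with the authors' fold as the measure.

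The presence rule found 2 of 103 regions in both KO and neither WT library, against 1.81% of all distal regions. The first, 7588 bases before Fzd9 (chr5:135258139-135258997), had heights of 20 and 46. The second, 19467 bases before Axin2 (chr11:108900728-108901157), had 20 and 40. In both, KO tumor 1 was near the lowest height that could be called. Fzd9 is a receptor of the hippocampus, and its promoter had 55 and 71 in KO against 55 and 55 in WT.

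The reverse pattern, both WT and neither KO library, was also found at 2 of 103 regions, against 1.61% of all distal regions. One lay 15212 bases after the start of Fzd1 (chr5:4742747-4743081), with heights of 22 and 22. The other lay 3788 bases before Fzd10 (chr5:128596798-128597119), with 17 and 23. All 4 heights were low, and the shares in both directions were close to those of all distal regions.

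Regions found in KO tumor 2 alone numbered 17 of 103 (16.5%), against 8.82% of all distal regions. KO tumor 1 had 5 alone (4.85%, against 3.90%), WT tumor 2, the deepest library, had 10 (9.71%, against 16.0%), and WT tumor 1 had 1 (0.971%, against 3.43%). The heights of the 17 ranged from 20 to 72, with a median of 26, and the median of all regions found in KO tumor 2 alone was 25. The tallest was 13054 bases before Fzd9, at a height of 72, above the 99th percentile of 65 of such regions. Next came the Wnt10a intron region printed above, at 58, an intron region of Axin2 12217 bases after its start, at 46, and an intron region of Wnt7b 1303 bases after its nearest start, at 45. These were named after their values were seen.

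**Figure D4:**
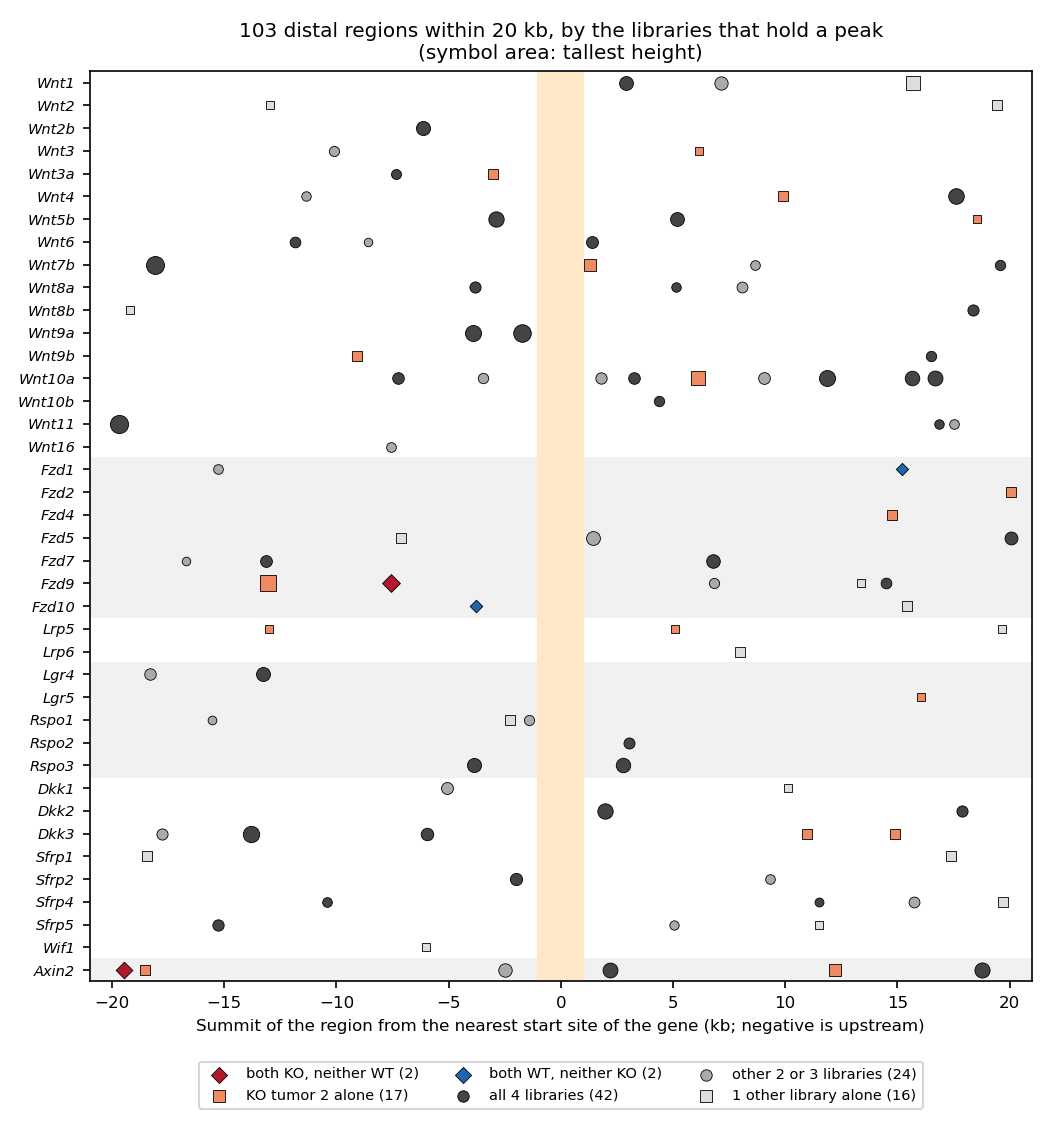
Position of the 103 distal regions relative to the nearest start of the gene (horizontal axis, kb, upstream negative), with 1 row per gene, symbol area for the tallest height and color for the libraries that hold a peak. The Wnt10a row is the densest, orange squares for KO tumor 2 alone are spread over ligands, receptors and inhibitors, and the beige strip is the promoter window.

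Ranked by the number of distal peaks, Wnt10a came first, with 9 and 8 in KO against 6 and 9 in WT. Its sum of 32 over the 4 libraries stood at percentile 99.6 of all genes. Wnt6, its neighbour 6.19 kb away on the same strand, had 4 and 5 in KO against 4 and 5 in WT, and 3 regions were common to both. Of the 12 regions near either gene, 7 were found in all 4 libraries. The tallest was in an exon of Wnt10a 11858 bases after its start, with 62 and 74 in KO against 50 and 67 in WT. The promoters of both genes were thus low or missing in part, beside distal regions that were present in all 4 libraries.

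Axin2 followed with 4 and 7 distal peaks in KO against 3 and 3 in WT, and was 1 of 2 genes of the 47, with Lrp5 at 1 and 2 against 0 and 0, whose KO counts were both above both WT counts. Over all genes this share was 2.49%. Of the 7 peaks in KO tumor 2, those 18546 bases before and 12217 bases after the start were regions found in that library alone. Regions in all 4 libraries were an intron region 2194 bases after its start, with 43 and 64 in KO against 35 and 50 in WT, and an exon region 18792 bases after it, with 59 and 66 in KO against 39 and 63 in WT. A region 2470 bases before the start had 37 and 52 in KO and 47 in WT tumor 2 and was missing in WT tumor 1. Differences at the 2 tested regions were 0.21 (log2, SE 0.24) and 0.22 (SE 0.23), with a limma adjusted p of 1 at each. Wnt7b had 4 and 4 distal peaks in KO against 2 and 4 in WT. A tie of 13 peaks followed among Wnt3a, Wnt9a, Fzd7 and Dkk3.

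Wnt3a and Wnt9a shared the same 4 regions between them. The taller 2 lay 1717 and 3922 bases before Wnt9a, with 63 and 70 in KO against 47 and 89 in WT at the nearer and 46 and 61 in KO against 41 and 74 in WT at the farther. Both were found in all 4 libraries, and their differences were −0.08 and −0.17 (log2, SE 0.23 each). Wnt1 likewise had regions near it, with a region over its exon of 55 and 33 in KO against 24 and 44 in WT, although its promoter had no peak.

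The Wnt11 region was the tallest of those found in all 4 libraries when ranked by its lowest library. At chr7:98814909-98816960, 19693 bases before the start of Wnt11, a ligand of heart and kidney development, it had 84 and 95 in KO against 57 and 91 in WT. RefSeq places 2 tRNA genes for proline in it, at chr7:98815415-98815486 and chr7:98815676-98815747, and the first lies within the sequence printed above. Its difference was 0.19 (log2, SE 0.24, limma adjusted p = 1). The Wnt11 promoter itself had 40 and 41 in KO against 38 and 53 in WT, with a difference of −0.25 (SE 0.22) and no overlap after centring.

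Motif letters were searched on both strands within 100 bp of summits and in RefSeq promoters, and a match is a description of letters, not of a bound site. The TCF/LEF letters CTTTGAT were found in 1 of 103 regions (0.971%), against 2.74% of all distal regions, and in 0 of the 42 regions found in all 4 libraries, against 2.28%. In promoters they were found in 2 of 33 rows, against 3.16% of all protein-coding rows. These were Wnt11 and a start of Wnt5b. At the Wnt11 start with the match WT tumor 1 alone had a peak, with a height of 21, which began after the match. The peaks found in all 4 libraries lay at the other Wnt11 start.

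The related HMG box CTTTGTT, which differs from the TCF/LEF letters at a single base and so cannot match the same place, was found in 6 of 103 regions (5.83%), against 4.82% of all distal regions. The AP-1 letters TGANTCA were found in 13 regions (12.6%), against 13.3%, and the E-box CATATG in 7 (6.80%), against 6.46%. Among regions found in all 4 libraries the E-box was in 5 of 42 (11.9%), against 6.11%. They were near Fzd7, Sfrp4, Wnt6, Wnt8a and Wnt11. The NFI half-site pair was in 0 of 103 regions, against 0.528% of all distal regions.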

How the data were processed

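The authors deposited a separate peak list for each tumor, so replicates were not pooled. MACS2, HOMER and mm10 are named in the notes of the submitters, without versions, while the methods of the study describe other tools. For each deposited peak the authors' caller gave a score, a ratio (fold of peak over its local background), a −log10 p-value, a −log10 q-value and a summit offset. Reads are not in the lists, so depth is known only through the background recovered here. A shift of reads for the transposase is not stated in the sources.

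Peak heights were recovered from the fold, which is (height + 1)/(background + 1), together with the Poisson p-value. Whole numbers matched within 0.001 for all 331481 peaks. The recovery was also run on data simulated with the same formula, which checks the code and not whether the lists follow the formula. The lowest background of a library was taken as its genome background. Genes were those of GENCODE M21 (basic starts, GRCm38). A promoter was 1000 bp either side of a start and a distal peak lay within 20 kb. Peaks sharing 1 bp were merged into regions. Log2 heights of features with a peak in all 4 libraries, centred on the library median, were tested with limma 3.58.1 (R 4.3.3, trend), with Benjamini-Hochberg adjustment over all features. Promoters missing from any library were outside that test. Groups and tumor numbers came from the sample titles. The 2 tumors of a group are from separate mice, and same-numbered tumors are not tied by the labels.

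Named genes were the 4 highest and 4 lowest promoter differences, Lrp5, Lrp6, Axin2, promoters missing in 1 to 3 libraries, the 5 genes with the most distal peaks, and genes and regions at or next to a presence call. The other members' values were added to complete the set. The members, lists, rules and motifs were chosen with earlier results of these data known. Alternatives changed the peak threshold, windows, scaling, measure, replicates and starts.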

Additional observations from a re-analysis of the deposited data

How the results depend on the processing

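The number of genes open in all 4 libraries ranged from 25 with only peaks of −log10 q 5 or higher to 34 with 2500 bp promoters, and was 33 to 35 when a library was left out. The WT-only count of 1 (Wnt6) was 0 with lists trimmed to the same length and 0 with 2500 bp promoters, and ranged from 1 to 3 when a library was left out. With −log10 q 5 or higher it was 1 again, through Wnt9b in place of Wnt6. The KO-only count of 0 ranged from 0 to 1. The difference of 7 distal peaks was −1.5 at that stricter threshold and −3.5 with the trimmed lists, and ranged from −4.5 (without WT tumor 1) to 18.5 when a library was left out. The cause was not tested. The limma calls among the 33 promoters and among the 42 regions were 0 under every planned scaling, filter and measure and ranged from 0 to 1 when a library was left out, through Fzd5 and the Wnt7b region without KO tumor 1, where the lone KO library is assumed to vary like the others. With the replicate block, 0 Wnt pathway promoters and 0 of their regions were called. Over all promoters that fit called 6 higher in KO and 6 lower against 2 and 0 without the block, and over all regions 10 higher in KO and 0 lower against 18 and 1. Scaling to the genome background called 3 promoters higher and 7 lower, and the fit without a variance trend, the fold and the summed heights called 0. Heights of KO tumor 1 and WT tumor 1 deviated from their group means with a correlation of −0.20 over promoters, and the labels tie no tumors, so the numbers were not read as pairs. Using all annotated starts, chosen after seeing the data, left 33 genes open and 0 called.

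Signs turned for single genes. With the fold as the measure the difference was −0.034 at Wnt7a, −0.090 at Fzd2 and −0.0093 at Axin2. With summed promoter heights it was 0.18 at Wnt16 and −0.089 at Fzd2, and with 2500 bp promoters −0.18 at Sfrp2. Leaving out a library gave −0.11 to 0.84 at Fzd2, −0.13 to 0.79 at Sfrp2 and −0.14 to 0.086 at Lrp6. The lowest called heights of 13 to 16 limit every statement on a missing peak.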
